A study of Mus musculus with 8 samples.

Results

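The genes described here are 7 chemokine receptor genes, Ccr1, Ccr2, Ccr7, Cxcr4, Cxcr5, Cx3cr1 and Ccrl2, out of 47937 gene identifiers counted in the study. They were taken as a list of names, and each name matched a single Ensembl identifier in both deposited count tables. RNA was sequenced from mouse bone marrow-derived dendritic cells (BMDCs), which are bone marrow cells grown in the growth factor GM-CSF. The study asked how G-protein coupled receptor kinases (GRKs), which act on chemokine receptors, bear on the biology of immune cells, and compared WT cells with cells depleted of Grk2, Grk3 and Grk6, labelled Grk 3xKO and called 3xGrk-/- here. The cells were analysed untreated or after LPS, the bacterial product that matures dendritic cells.

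The 4 groups were unstimulated WT, unstimulated 3xGrk-/-, LPS-stimulated WT and LPS-stimulated 3xGrk-/- BMDCs, with 2 libraries each. All cultures were kept in GM-CSF for 8 days, and the stimulated ones then received 20 ng/ml LPS for 24 h. The 3xGrk-/- cells came from mice that were Grk3-/- in the whole animal and carried floxed alleles of the other targeted kinases, written Grk2 fl/fl and Grk6 fl/fl, which Vav-iCre deletes early in blood cell precursors. The controls were Cre-negative adult mice of matched age and sex. The study's methods speak of technical replicates, and nothing in the labels says that the 2 libraries of a group came from separate cultures or animals. The p-values below thus measure the spread between these libraries, which may be technical. The test pools that spread over genes within each fit.

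Chemokine receptors are seven-pass membrane proteins that couple to inhibitory G proteins and steer the migration of leukocytes along gradients of chemokines. GRKs phosphorylate the activated receptors, arrestins then bind, and signalling stops. In dendritic cells the set of receptors changes with maturation: receptors for inflammatory chemokines, such as CCR1 and CCR2, are known to be lost while CCR7, which guides the cells into lymphatic vessels and lymph nodes, is gained.

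The libraries held 4713305 to 6933358 counted reads. Levels are given in CPM, the counts of a library scaled to its size with TMM factors over the 8 libraries. Differences are log2 fold changes (log2FC) from edgeR's quasi-likelihood test, a gene being called where its p, adjusted after Benjamini and Hochberg over every gene in the fit, is under 0.05. The level of Gm42418, a gene that overlaps ribosomal RNA, set 1 library apart, at 2.16% of the counts in LPS-stimulated 3xGrk-/- replicate 2 against 0.273% to 0.638% in the others; values without that library stand beside the results they change. The targeted kinases were called as lower in 3xGrk-/- cells, with a log2FC without and with LPS of −1.11 and −1.89 for Grk2, −0.36 and −0.42 for Grk3 and −1.19 and −1.54 for Grk6; the counts cover whole genes and do not separate the deleted exons.

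The 9 dendritic cell markers (Flt3, Zbtb46, Dpp4, Ciita, Irf4, Batf3 and the MHC class II pathway genes Cd74, H2-Aa and H2-Ab1) summed to between 20695 and 20914 CPM in unstimulated WT libraries and to between 9864 and 10068 CPM in unstimulated 3xGrk-/- libraries, and to between 11751 and 12925 CPM and between 9895 and 10051 CPM with LPS; 7 of the 9 were lower and 1 higher in 3xGrk-/- cells without LPS, and 8 were lower and 1 higher with LPS. Over all genes tested, 22.1% were higher and 22.7% lower in 3xGrk-/- cells without LPS, and 24.7% and 24% with LPS. The 3 MHC class II pathway genes made up 91.2% to 93.6% of the marker sum in every library, and the 6 other markers summed to 1335 to 1364 CPM in WT against 789 to 817 CPM in 3xGrk-/- libraries without LPS, and to 1037 to 1040 CPM against 650 to 655 CPM with LPS. Of these 6, Ciita had 552 and 541 CPM in WT against 205 and 198 CPM in 3xGrk-/- libraries without LPS. Flt3 was the 1 marker that was higher in 3xGrk-/- cells, with a log2FC of 0.95 without and 1.35 with LPS. None of the 9 was at or under 3 counts in every library of a group. The 9 macrophage markers summed to 790 to 818 CPM in WT against 1478 to 1535 CPM in 3xGrk-/- cells without LPS, with 6 of the macrophage markers higher and 2 lower, and to 395 to 401 CPM against 2738 to 2796 CPM with LPS, with 9 of 9 higher. In such bulk samples, more cells of a type and more RNA per cell cannot be told apart. The part of these marker shifts in the receptor values was not tested.

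Of the 7 genes, 5 lie on chromosome 9 in the mouse genome (GRCm38): Ccr1 at chr9:123962124-123968692 on the minus strand, Ccr2 at chr9:124101950-124113557 on the plus strand, Ccrl2 at chr9:111054486-111057519, Cx3cr1 at chr9:119901616-120069879 and Cxcr5 at chr9:44511787-44561877, the last 3 on the minus strand. Ccr7 lies at chr11:99144196-99155077 and Cxcr4 at chr1:128588199-128592293, both on the minus strand. The promoters of Ccr1, Ccrl2 and Ccr2 are shown because these 3 genes had the largest fold differences between the genotypes after LPS, while Ccr2 answered LPS in the direction opposite to Ccrl2. Each run covers 250 bases before to 50 bases after the transcription start in RefSeq (GRCm38.p6), written along the strand of the gene. For 5 of the 7 genes a promoter was matched (Ccr1, Ccr2, Ccrl2, Cxcr4 and Cx3cr1), and for Ccrl2 the one of its 3 starts that holds a motif match is shown. Capitals mark motif matches: GAGGAA, the core bound by the myeloid factor PU.1, starting 129 bases before the start of Ccr1, and a kappa B match, the motif of the NF-kB factors that LPS activates, starting 56 bases before the start of Ccrl2.
Ccr1, chr9:123968643-123968942, minus strand: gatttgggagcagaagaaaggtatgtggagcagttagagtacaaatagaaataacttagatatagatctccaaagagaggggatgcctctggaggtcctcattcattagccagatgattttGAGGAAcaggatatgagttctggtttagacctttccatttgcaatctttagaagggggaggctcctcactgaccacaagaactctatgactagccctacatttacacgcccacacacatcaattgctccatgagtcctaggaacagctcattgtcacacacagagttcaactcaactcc
Ccrl2, chr9:111057469-111057768, minus strand: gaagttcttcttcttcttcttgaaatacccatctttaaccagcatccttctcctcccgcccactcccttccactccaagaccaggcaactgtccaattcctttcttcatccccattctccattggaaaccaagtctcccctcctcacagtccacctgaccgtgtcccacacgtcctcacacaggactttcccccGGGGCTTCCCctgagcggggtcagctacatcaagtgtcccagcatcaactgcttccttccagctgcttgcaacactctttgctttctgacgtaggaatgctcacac
Ccr2, chr9:124101933-124102232, plus strand: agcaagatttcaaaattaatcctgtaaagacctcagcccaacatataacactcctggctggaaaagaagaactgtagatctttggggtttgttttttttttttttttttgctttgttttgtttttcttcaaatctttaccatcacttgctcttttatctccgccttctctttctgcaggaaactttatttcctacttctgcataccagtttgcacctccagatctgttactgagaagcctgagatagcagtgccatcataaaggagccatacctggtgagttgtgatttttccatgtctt
The motifs searched, on both strands, were GAGGAA (PU.1), TGANTCA (AP-1), the ISRE core of the interferon response (GAAA, any 2 letters, GAAA) and the kappa B motif. No match overlapped another in these windows. Of 32851 promoter windows of the same length, 28.3% held the PU.1, 7.81% the AP-1, 3.44% the ISRE and 4.51% the kappa B motif. No match was found in the windows of Ccr2, Cxcr4 and Cx3cr1 or in the other 2 windows of Ccrl2, which says only that these letters are not there.

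To compare the receptors with each other, the CPM were divided by the length in kb of all annotated exons of each gene, overlaps counted once. Ccr7 had the highest level per length in every group, at 619 ± 4.37 CPM per kb (SD, n = 2) in unstimulated WT, 733 ± 1.33 in unstimulated 3xGrk-/-, 1911 ± 74.9 in LPS-stimulated WT and 1534 ± 33.7 in LPS-stimulated 3xGrk-/- cells. It made up 87.1%, 85.1%, 95.9% and 86.1% of the summed level of the 7 genes in these groups. Behind Ccr7, the order differed between the genotypes. In WT cells Cxcr4 came next without and with LPS, at 39.2 ± 0.93 and 55.2 ± 0.78 CPM per kb. In 3xGrk-/- cells Ccr1 came next, at 68.9 ± 0.51 without and 124.7 ± 5.03 CPM per kb with LPS. The rank of Cxcr4 in unstimulated WT cells rests on the length. In CPM, Ccr2 (113.8) and Ccr1 (94.1) stood above Cxcr4 (70.8) there. The lowest ranks went to Cxcr5 and Cx3cr1 without LPS and to Ccr2 and Cx3cr1 with LPS, in both genotypes. In no group did the libraries of neighbouring genes in this order overlap. With 2 libraries per group and an order set by the same values, this says little. In LPS-stimulated WT cells Ccr1 and Ccrl2 lay close together, at 11.4 ± 0.029 and 10.8 ± 0.017 CPM per kb. In unstimulated WT cells Cxcr5 and Cx3cr1 rested on 9 counts or fewer per library. There the lowest Cxcr5 library had 0.287 and the highest Cx3cr1 library 0.280 CPM per kb.

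**Figure D1:**
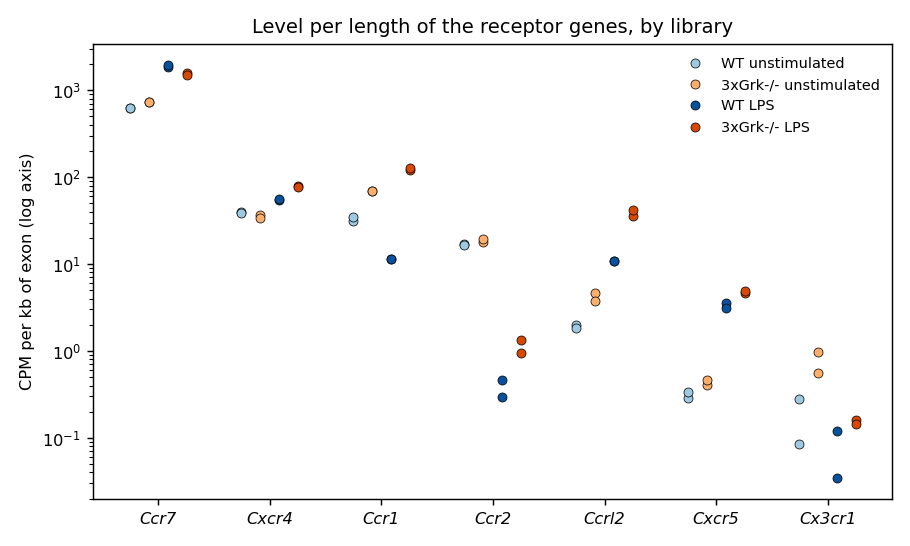
Level of the 7 receptor genes in CPM per kb of exon (log axis) in each of the 8 libraries, coloured by group. Ccr7 lies above 600 CPM per kb in every library, and Ccr1 is the second highest gene in the 3xGrk-/- libraries, with and without LPS.

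Summed without Ccr7, the other 6 genes stood at 90.9 and 92.4 CPM per kb in unstimulated WT and at 128.9 and 127.6 in unstimulated 3xGrk-/- libraries. With LPS the sums were 80.9 and 81.5 in WT and 242 and 253 CPM per kb in 3xGrk-/- libraries. This sum stood higher in both 3xGrk-/- libraries of either stimulation, with Ccr1 as its largest share there. Not every gene in it did: Cxcr4 had 39.8 and 38.5 CPM per kb in unstimulated WT against 36.7 and 33.6 CPM per kb in unstimulated 3xGrk-/- libraries.

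In the comparison of genotypes, Ccr1, Ccr2, Ccr7 and Ccrl2 were higher in unstimulated 3xGrk-/- cells, 4 of the 5 receptor genes that reached 10 counts in a library of both genotypes, and Cxcr4 did not pass the test. Of these 4 calls, that of Ccr2 was lost with DESeq2 and with scaling by library size only. Cx3cr1 was also called as higher, but it passed the filter on low counts only through its 3xGrk-/- libraries, which fixed its direction, so it is not counted here. Of the 12000 genes tested there, 44.7% were called, 22.1% as higher and 22.7% as lower. With LPS, 5 of 6 tested receptor genes were higher and Ccr7 was lower in 3xGrk-/- cells, where 48.6% of 11830 genes were called, 24.7% as higher and 24% as lower. Of these 5 calls, that of Cxcr5 was lost with DESeq2 (adjusted p = 0.168). Cxcr5 without LPS and Cx3cr1 with LPS had too few counts to be tested. The 2 comparisons rest on different libraries and on spreads pooled over genes in separate fits, so their p-values are not on one scale.

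**Figure D2:**
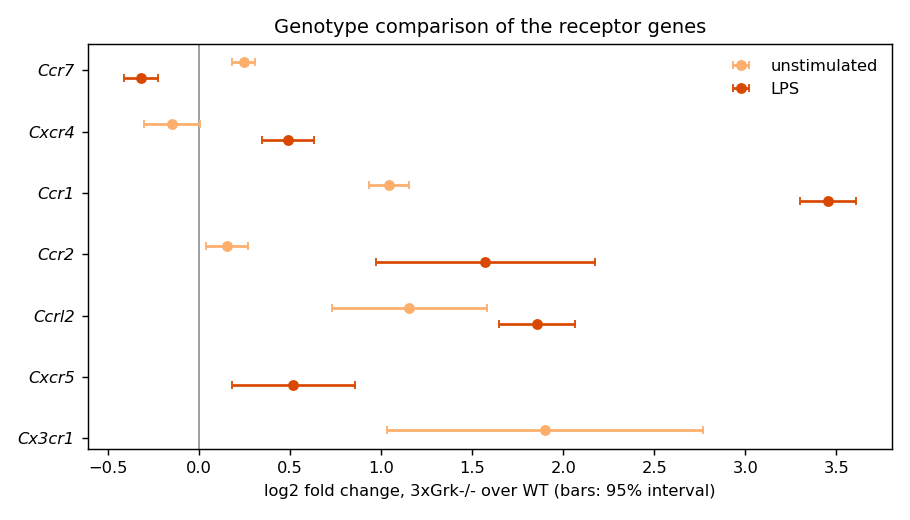
Log2 fold change (log2FC) of each receptor gene between 3xGrk-/- and WT cells, unstimulated and with LPS, with 95% intervals; a missing point is a gene with too few counts to be tested. Ccr1 shows the largest difference with LPS, at 3.45, and Ccr7 is the only gene left of 0 with LPS.

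Ccr7 encodes the receptor for CCL19 and CCL21. Its level was 1230.0 and 1217.8 CPM in the unstimulated WT libraries and 1451.6 and 1447.9 CPM in the unstimulated 3xGrk-/- libraries. With LPS it was 3674.8 and 3884.4 CPM in WT and 3080.9 and 2986.7 CPM in 3xGrk-/- libraries. The 3xGrk-/- libraries were thus the higher ones before and the lower ones after LPS, without overlap in either case. The log2FC between the genotypes was 0.24 (SE 0.0317, adjusted p = 1.15e-13) without LPS and −0.32 (SE 0.0481, adjusted p = 1.17e-05) with LPS.

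Both genotypes raised Ccr7 with LPS. The log2FC was 1.63 (SE 0.0410, adjusted p = 5.38e-23) in WT and 1.07 (SE 0.0404, adjusted p = 5.83e-19) in 3xGrk-/- cells. The response was smaller in 3xGrk-/- cells by 0.56 on the log2 scale, as the interaction term of −0.56 shows (SE 0.0567, adjusted p = 5.56e-09). With the spread set to a biological coefficient of variation of 0.1 the genotype differences of Ccr7 were no longer called, with an adjusted p of 0.246 without and 0.0716 with LPS. The ligand genes Ccl19 and Ccl21a had 0 counts in every library.

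**Figure D3:**
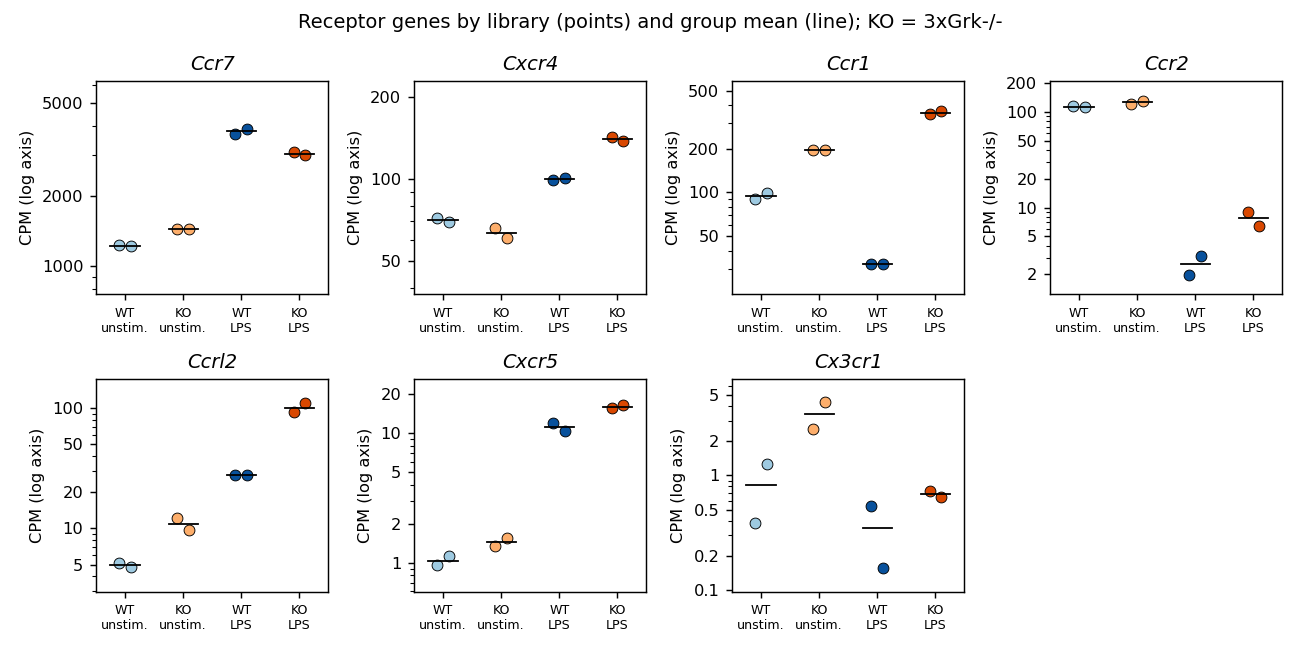
CPM (log axis, own range in each panel) of the 7 receptor genes in the 2 libraries of each group, with the group mean as a line; KO stands for 3xGrk-/-. Ccr1 falls with LPS in WT and rises in 3xGrk-/- libraries, and Ccr2 falls in both.

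Cxcr4, the receptor for CXCL12 that holds cells in the bone marrow, had 72.0 and 69.7 CPM in unstimulated WT libraries and 66.4 and 60.8 CPM in unstimulated 3xGrk-/- libraries. With LPS it had 98.9 and 100.9 CPM in WT and 142.7 and 138.0 CPM in 3xGrk-/- libraries. The groups lay close together before LPS and apart after it. Without LPS the log2FC was −0.15 (95% interval −0.30 to 0.0043, adjusted p = 0.111), so a difference was not called. With LPS it was 0.49 (SE 0.0730, adjusted p = 9.82e-06).

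LPS raised Cxcr4 in both genotypes, by 0.50 on the log2 scale in WT (SE 0.0735, adjusted p = 1.24e-06) and by 1.14 in 3xGrk-/- cells (SE 0.0718, adjusted p = 7.46e-14). The responses differed by 0.64 (SE 0.103, adjusted p = 1.46e-05). Cxcl12, its ligand gene, had at most 5 counts in any library. Scaled by library size only, the unstimulated difference of Cxcr4 was called, at −0.23 (adjusted p = 0.00784).

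Cxcr5, the receptor for CXCL13 that brings B cells and some T cells into follicles, was a low gene before LPS, with 5 and 8 counts in the WT and 9 and 9 counts in the 3xGrk-/- libraries. After LPS it had 66 and 67 counts in WT and 85 and 101 counts in 3xGrk-/- libraries, or 12.0 and 10.4 CPM against 15.5 and 16.4 CPM. All LPS-stimulated libraries were thus above all unstimulated ones. With LPS the 3xGrk-/- libraries stood above the WT ones, while without LPS the counts were too few for a test between the genotypes. The log2FC with LPS was 3.38 (SE 0.300) in WT and 3.44 (SE 0.256) in 3xGrk-/- cells, given as a description, since the gene passed the filter on low counts only through the stimulated libraries, which fixed its direction.

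No difference between these 2 responses of Cxcr5 was called, at 0.065 with a 95% interval from −0.95 to 1.08 (adjusted p = 0.952). Between the genotypes with LPS the log2FC was 0.52 (SE 0.172, adjusted p = 0.0169). That call was lost with DESeq2 (adjusted p = 0.168), without LPS-stimulated WT replicate 2 (adjusted p = 0.0874) and without LPS-stimulated 3xGrk-/- replicate 2 (adjusted p = 0.0853). The B cell markers Cd79a, Cd79b, Ms4a1 and Pax5 had at most 3 counts in every library, and the 5 B cell markers summed to 2.18 to 6.73 CPM over the groups. Ighm, the only one tested, was lower in 3xGrk-/- cells without LPS (log2FC −1.08, adjusted p = 0.000468) and not called with LPS (−0.18, adjusted p = 0.728). LPS lowered Ighm in WT cells (−1.38, adjusted p = 0.000202), and no change was called in 3xGrk-/- cells (−0.49, adjusted p = 0.265). Cxcl13 had 0 counts in every library, and 3.3% of the exon bases of Cxcr5 overlap Bcl9l on the opposite strand.

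Ccr1 binds inflammatory chemokines such as CCL3, CCL5, CCL6 and CCL9 and is expressed by monocytes and macrophages. Its level was 89.6 and 98.7 CPM in unstimulated WT libraries and 194 and 196 CPM in unstimulated 3xGrk-/- libraries. With LPS it was 32.3 and 32.2 CPM in WT and 343 and 363 CPM in 3xGrk-/- libraries. The LPS-stimulated WT libraries were the lowest and the LPS-stimulated 3xGrk-/- libraries the highest of all 8, with no overlap between any of the groups.

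The log2FC of Ccr1 between the genotypes was 1.04 (SE 0.0567, adjusted p = 2.01e-73) without LPS and 3.45 (SE 0.0788, adjusted p = 9.29e-19) with LPS, which is 32.2 ± 0.082 against 353 ± 14.2 CPM (SD, n = 2). LPS lowered Ccr1 in WT cells, with a log2FC of −1.55 (SE 0.0813, adjusted p = 1.00e-15), and raised it in 3xGrk-/- cells, by 0.86 (SE 0.0564, adjusted p = 1.98e-13). Of the 7 receptor genes, Ccr1 was the only one for which the called responses of the genotypes had opposite signs. The interaction term was 2.41 (SE 0.0989, adjusted p = 3.96e-17).

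Of the 9 macrophage markers, all had a positive interaction term that was called, as Ccr1 had, where 16.5% of all genes had one. Their responses to LPS differed among them: in WT cells 7 fell, as Ccr1 did and 30.8% of all genes did, and Adgre1 (1.02) and Cd14 (0.93) rose, and in 3xGrk-/- cells 4 rose, as Ccr1 did and 28% of all genes did, Csf1r (−0.46) and Mrc1 (−1.93) fell and 3 were not called. Their part in the values of Ccr1 was not tested. No 50-base stretch of the Ccr1 transcripts occurred in another gene.

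Ccr2, the receptor for CCL2 that carries monocytes out of the bone marrow, had 115 and 112 CPM in unstimulated WT libraries and 121 and 132 CPM in unstimulated 3xGrk-/- libraries. With LPS it had 1.996 and 3.09 CPM in WT libraries, or 11 and 20 counts, and 9.09 and 6.49 CPM in 3xGrk-/- libraries, or 50 and 40 counts. Every stimulated library was far below every unstimulated one, and the 3xGrk-/- libraries stood above the WT ones. LPS changed Ccr2 by −5.45 on the log2 scale in WT (SE 0.152, adjusted p = 5.64e-22) and by −4.03 in 3xGrk-/- cells (SE 0.121, adjusted p = 2.53e-21), or 44.7-fold and 16.3-fold lower CPM.

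The response of Ccr2 differed between the genotypes by 1.41 (SE 0.285, adjusted p = 0.000245). With LPS the log2FC between the genotypes was 1.57 (SE 0.306, adjusted p = 0.000207). Without LPS it was 0.15 (SE 0.0596, adjusted p = 0.0245), a call that was lost with DESeq2 (adjusted p = 0.269), with library size only (adjusted p = 0.363), with all 8 libraries in one fit (adjusted p = 0.110), without unstimulated WT replicate 2 (adjusted p = 0.185) and without unstimulated 3xGrk-/- replicate 2 (adjusted p = 0.322). The monocyte markers Ly6c2 and Ms4a4c summed to 40.4 to 46.8 CPM in unstimulated WT, 56.6 to 67.9 in unstimulated 3xGrk-/-, 156 to 166 in LPS-stimulated WT and 368 to 395 CPM in LPS-stimulated 3xGrk-/- libraries, and their part was not tested. Without LPS Ms4a4c was lower in 3xGrk-/- cells (log2FC −1.67, adjusted p = 4.47e-08) and Ly6c2 higher (0.75, adjusted p = 4.02e-15). With LPS Ms4a4c was higher (2.49, adjusted p = 2.39e-16), and no difference was called for Ly6c2 (−0.011, adjusted p = 0.921).

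Of the 50-base stretches of the Ccr2 transcripts, 1.91% also occurred in other genes. The part of shared reads in the difference of Ccr2 after LPS was not tested.

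Cx3cr1, the receptor for fractalkine (CX3CL1) on monocytes and resident macrophages, was the lowest of the 7 genes in counts summed over the libraries. It had 2 and 9 counts in unstimulated WT, 17 and 25 in unstimulated 3xGrk-/-, 3 and 1 in LPS-stimulated WT and 4 and 4 in LPS-stimulated 3xGrk-/- libraries. Only the unstimulated 3xGrk-/- libraries stood clear of the low counts of the other groups. The log2FC between the genotypes without LPS was 1.90 (SE 0.443), and it ranged from 1.41 without unstimulated WT replicate 1 to 3.07 without replicate 2. It is given as a description, since the gene passed the filter on low counts only through the unstimulated 3xGrk-/- libraries, which fixed its direction.

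Between LPS-stimulated and unstimulated 3xGrk-/- cells the log2FC of Cx3cr1 was −2.27 (SE 0.527), given as a description for the same reason. In WT cells no change was called (adjusted p = 0.161), the unstimulated and stimulated libraries overlapped, and the stimulated ones lay at or under 3 counts, so that no fold is given. A difference between the 2 responses was not detectable at this depth, with an interaction term of −0.91 and a 95% interval from −3.10 to 1.28 (adjusted p = 0.594). Cx3cl1, the gene of its ligand, had 155 and 151 CPM in unstimulated WT libraries, 145 and 154 CPM in unstimulated 3xGrk-/-, 293 and 303 CPM in LPS-stimulated WT and 133 and 132 CPM in LPS-stimulated 3xGrk-/- libraries. With LPS the ligand gene was lower in 3xGrk-/- cells, with a log2FC of −1.17 (SE 0.064, adjusted p = 2.34e-12).

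Ccrl2 encodes an atypical receptor that binds chemerin and does not signal through G proteins. Its level was 5.16 and 4.77 CPM in unstimulated WT libraries and 12.1 and 9.72 CPM in unstimulated 3xGrk-/- libraries. With LPS it was 27.9 and 28.0 CPM in WT and 92.5 and 109.8 CPM in 3xGrk-/- libraries. The groups did not overlap and rose in the order unstimulated WT, unstimulated 3xGrk-/-, LPS-stimulated WT and LPS-stimulated 3xGrk-/-.

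The log2FC of Ccrl2 between the genotypes was 1.15 (SE 0.218, adjusted p = 5.60e-07) without and 1.86 (SE 0.107, adjusted p = 5.49e-12) with LPS. LPS raised it by 2.50 in WT (SE 0.181, adjusted p = 1.29e-12) and by 3.20 in 3xGrk-/- cells (SE 0.122, adjusted p = 6.36e-19). The difference between these responses was 0.70 (SE 0.257, adjusted p = 0.0366). It was not called with DESeq2 (adjusted p = 0.0915), at a coefficient of variation of 0.1 (adjusted p = 0.118), or without 1 of the 2 unstimulated WT libraries (adjusted p = 0.126 and 0.105), unstimulated 3xGrk-/- replicate 2 (adjusted p = 0.137) or LPS-stimulated 3xGrk-/- replicate 2 (adjusted p = 0.0975). Rarres2, the chemerin gene, had at most 2 counts in any library.

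Among the 5 receptor genes that reached 10 counts in a library both with and without LPS, Ccr7, Cxcr4 and Ccrl2 rose and Ccr1 and Ccr2 fell in WT cells, where 60.3% of the 12541 genes tested were called, 29.5% as raised and 30.8% as lowered. In 3xGrk-/- cells Ccr1 joined those that rose, making 4, and Ccr2 fell, where 55.4% of all genes were called, 28% as raised and 27.4% as lowered. The calls of Cxcr5 in both genotypes and of Cx3cr1 in 3xGrk-/- cells are not counted, since these genes reached 10 counts in only one of the groups compared, which fixed their direction. The interaction was called for 5 of the 7, 4 with a positive term and Ccr7 with a negative one, where 32.5% of all genes were called, 16.5% positive and 16% negative. The LPS responses of the genotypes used one fit of all 8 libraries. Scaling by library size only moved the responses of all genes by −0.215 in WT and −0.218 in 3xGrk-/- cells on the log2 scale and turned none of the called directions of the receptor genes.

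**Figure D4:**
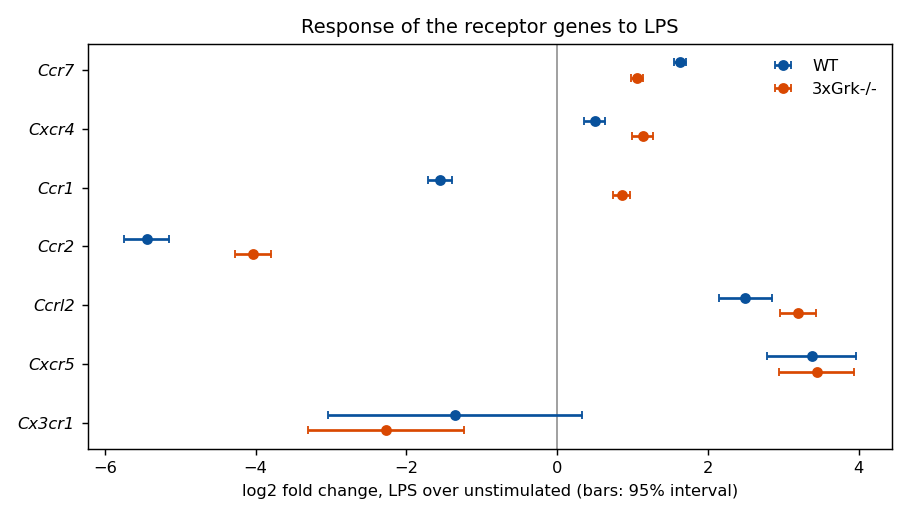
Log2 fold change (log2FC) of each receptor gene between LPS-stimulated and unstimulated cells, in WT and in 3xGrk-/- cells, with 95% intervals. The points of Ccr1 lie on opposite sides of 0, at −1.55 in WT and 0.86 in 3xGrk-/- cells, and the intervals of Cxcr5 overlap.

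The balance between the receptors can be read as a ratio of levels per length within a library. Ccr7 stood 36.4-fold and 37.1-fold above Ccr2 in the unstimulated WT libraries and 40.8-fold and 37.5-fold above it in the unstimulated 3xGrk-/- libraries. With LPS the ratio was 6292 and 4290 in WT and 1158 and 1574 in 3xGrk-/- libraries. The ratio of Ccr7 to Ccr1 went from 19.7 and 17.7 without to 163 and 173 with LPS in WT libraries. In 3xGrk-/- libraries it was 10.7 and 10.6 without and 12.9 and 11.8 with LPS. The ratio of Ccr7 to Ccr1 thus rose with LPS in WT libraries to far above every 3xGrk-/- library.

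Of 16 other chemokine receptor genes, 3 had enough counts to be tested. Ccr4, a receptor known from T cells, had 4 and 3 counts in unstimulated WT, 22 and 24 in unstimulated 3xGrk-/-, 181 and 245 in LPS-stimulated WT and 168 and 181 in LPS-stimulated 3xGrk-/- libraries. Before LPS its log2FC between the genotypes was 2.66, with its direction fixed in the same way by the filter on low counts, and no difference was called after LPS (−0.25, adjusted p = 0.0861). The 6 T cell markers summed to 1.13 to 5.73 CPM over the groups, with Cd3e, Cd4 and Trac at or under 3 counts in every library. Cd8a, the only T cell marker with enough counts to be tested, was lower in 3xGrk-/- cells, with a log2FC of −2.22 without and −3.94 with LPS. Ccr3, the receptor of eosinophils, had 34 to 76 counts in the WT and 4 to 6 counts in the 3xGrk-/- libraries. The 5 eosinophil markers, Ccr3 among them, summed to 896 to 966 CPM in WT and to 36.2 to 57.6 CPM in 3xGrk-/- libraries, and their part was not tested. Their differences were uneven. The log2FC without and with LPS was −5.89 and −6.37 for Epx and −4.27 and −4.24 for Prg2. For Siglecf no difference was called without LPS (−0.20, adjusted p = 0.258), and with LPS it was lower (−2.41, adjusted p = 9.81e-08). Cxcr2, a neutrophil receptor, was lower in 3xGrk-/- cells in either stimulation, with a log2FC of −0.79 unstimulated (adjusted p = 9.28e-07) and −0.96 after LPS (adjusted p = 0.0159). The 7 neutrophil markers, Cxcr2 among them, summed to 517 to 535 CPM in WT and 363 CPM in 3xGrk-/- libraries without LPS and to 195 to 229 against 95.3 to 110.1 CPM with LPS.

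**Figure D5:**
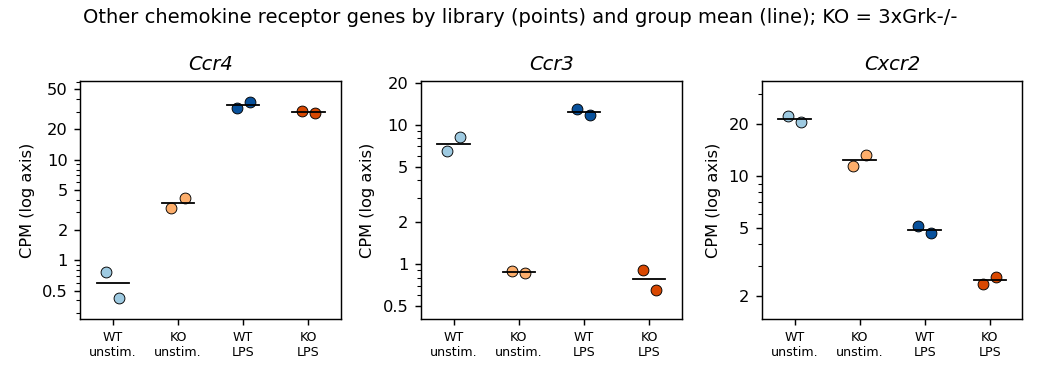
CPM (log axis, own range in each panel) of the 3 other chemokine receptor genes that could be tested, in the 2 libraries of each group, with the group mean as a line; KO stands for 3xGrk-/-. Ccr4 is low in the unstimulated WT libraries, and Ccr3 is low in all 3xGrk-/- libraries.

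Among 14 genes of ligands of the 7 receptors, 8 could be tested without LPS, of which 5 were higher and 1 lower in 3xGrk-/- cells, where 22.1% of all genes tested were higher and 22.7% lower. With LPS 9 could be tested, of which 7 were higher and 2 lower, where 24.7% of all genes were higher and 24% lower. Of these 7, Ccl8 and Ccl12 reached 10 counts in the 3xGrk-/- libraries only, which fixed their direction and leaves 5. Ccl2, the main ligand gene of Ccr2, had 19.9 and 17.5 CPM in unstimulated WT libraries and 212 and 214 CPM in unstimulated 3xGrk-/- libraries, and 32.7 and 36.2 against 1141 and 1171 CPM with LPS. The 3xGrk-/- libraries were above the WT ones throughout. The log2FC of Ccl2 was 3.52 without and 5.06 with LPS, and that of Ccl7, which binds Ccr1 and Ccr2, was 4.10 without (SE 0.20, adjusted p = 3.24e-93) and 6.18 with LPS (SE 0.10, adjusted p = 8.38e-21).

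The ligand genes of Ccr1 did not all move alike. Ccl3 (2.01 without and 1.83 with LPS), Ccl6 (1.58 and 0.92) and Ccl9 (2.73 and 1.78) were higher in 3xGrk-/- cells, given as log2FCs, and each passed the test in both stimulations. Ccl5, the most abundant of these genes with LPS at 6825 and 7612 CPM in WT and 5765 and 5819 CPM in 3xGrk-/- libraries, was lower in 3xGrk-/- cells by both tests (−0.11, adjusted p = 0.00869, and −0.32, adjusted p = 1.32e-05). Ccl12, another ligand gene of Ccr2, had 16 and 16 counts in unstimulated WT, 13 and 8 in unstimulated 3xGrk-/-, 0 and 1 in LPS-stimulated WT and 89 and 128 in LPS-stimulated 3xGrk-/- libraries.

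All 25 genes listed for the signalling of chemokine receptors could be tested. Among them are the 3 targeted kinases, whose fall the genotype fixed. These 3 are part of the counts and medians below and were lower in both comparisons of genotypes. Of the 25 genes, 9 were higher and 6 lower in 3xGrk-/- cells without LPS, and 4 were higher and 16 lower with LPS. Of all genes tested, 22.1% and 22.7% were higher and lower without LPS and 24.7% and 24% with LPS. The median log2FC of the 25 genes was 0.025 and −0.19 in these comparisons, against −0.00168 and −0.00663 over all genes tested. LPS raised 15 and lowered 6 of the 25 genes in WT, against 29.5% and 30.8% of all genes, and raised 9 and lowered 11 in 3xGrk-/- cells, against 28% and 27.4%. The interaction term was called as negative for 15, Grk2 and Grk6 among them, and as positive for 4, against 16% and 16.5% of all genes. Beta-arrestins, which bind phosphorylated receptors, were among those higher in 3xGrk-/- cells: Arrb1 with a log2FC of 0.13 (adjusted p = 0.00688) without and 0.58 (adjusted p = 1.88e-07) with LPS, and Arrb2 with 0.30 (adjusted p = 3.61e-12) and 0.29 (adjusted p = 0.000506). Pik3cg, the lipid kinase of G protein-coupled receptors, did not pass the test without LPS (−0.088, adjusted p = 0.0898) and was lower with LPS (−1.32, adjusted p = 9.58e-14), and so was Elmo1, a partner of the Rac activator Dock2 (−0.046, adjusted p = 0.595, and −1.35, adjusted p = 2.81e-13). Rgs1, a regulator that shortens G protein signalling, was higher without LPS (0.30, adjusted p = 5.29e-05) and lower with LPS (−0.63, adjusted p = 5.22e-08), as was Ccr7.

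For each receptor gene the 3 genes with the most similar levels were looked up among 9150 genes, by Pearson's r of log2 CPM over the 8 libraries, which share groups and depth. With Ccr1 these were Lrrc25 (r = 0.998), Mcoln1 and Plxnb2, with Ccr2 Rpn1 (r = 0.998), Kcnab2 and Gsn, and with Ccr7 Dusp14 (r = 0.998), Stat3 and Traf3ip2. With Cxcr4 they were Prr14l (r = 0.997), Tap2 and Bst2, with Cxcr5 Il15 (r = 0.999), Ifi209 and Ly96, and with Ccrl2 Casp4 (r = 0.998), Timp1 and Dusp1. For Cx3cr1 the highest r was 0.966, with Gmfb, followed by Gps2 and Tstd3. The likeness is one of pattern and not of size: Plxnb2 differed between the genotypes by 4.14 with LPS on the log2 scale and Mcoln1 by 1.08, where Ccr1 differed by 3.45.

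The protein-coding genes beside the receptor genes on the chromosome did not share their pattern throughout. Beside Ccrl2, Ltf had a log2FC between the genotypes of −0.45 without and −0.53 with LPS and fell with LPS in both genotypes, where Ccrl2 was higher in 3xGrk-/- cells and rose. Beside Ccr7, Smarce1 rose with LPS by 1.12 in WT and 0.90 in 3xGrk-/- cells and was lower in LPS-stimulated 3xGrk-/- cells (log2FC −0.32, adjusted p = 0.000141), in the direction of Ccr7, but without LPS its log2FC was −0.097 (adjusted p = 0.133). Tns4, on the other side of Ccr7, was higher in 3xGrk-/- cells without LPS (log2FC 0.59, adjusted p = 3.41e-05), as Ccr7 was. Unlike Ccr7, it was also higher in 3xGrk-/- cells with LPS (0.41, adjusted p = 0.0296) and fell with LPS in 3xGrk-/- cells (−0.44, adjusted p = 0.00408). Xcr1 and Ccr1l1, the neighbours of Ccr1, had at most 2 counts in any library.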

How the data were processed

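Libraries of 8 BMDC samples were made with a stranded mRNA kit. The authors aligned the reads to mm10 with STAR and counted them on genes with featureCounts, and deposited whole-number counts without normalization, 1 table per stimulation. The annotation release and the strand and multi-mapper settings are not given in the sources used here. Names, lengths and coordinates came from GENCODE M21, with 47310 of the 47937 identifiers matched without their version number, and unmatched ones holding 0.0468% of the counts. Per gene, the median chi-square between the 2 libraries of a group was 1.16 to 1.92 times the value from counting noise, with libraries scaled to total counts.

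Counts were fitted with edgeR 4.0.16 in R 4.3.3 (TMM, filterByExpr, glmQLFit, glmQLFTest), each table on its own for the genotype comparisons and all 8 libraries together for the LPS responses and the interaction, and the fits were tested on simulated data. The standard error is the log2 fold change before shrinkage divided by the square root of F. With 2 libraries against 2, an exact permutation test of a single gene cannot go below p = 0.333. The floor is 3 counts in each library of a group and covers counting error only. Genes named are the 7 receptors, the targeted kinases, genes of the lists of other receptors, ligands and signalling genes, Gm42418, the 3 genes most like each receptor (mean log2 CPM no lower than 3), and the genes beside them. The receptors and lists were chosen with earlier results of these data known. Some genes of the lists are not reported here.

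DESeq2 1.42.0, other scalings and filters, the replicate number as a block, other sets of libraries, a set spread and leaving out each library were the alternatives. Libraries with the same replicate number did not deviate together (r −0.0654 to 0.0718 over 9150 genes), so no pairing was assumed.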

Additional observations from a re-analysis of the deposited data

Results flagged for a closer look

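For 5 of the 7 receptor genes the difference between the genotypes itself differed between unstimulated and LPS-stimulated cells, by the interaction term of the fit of all 8 libraries, where 32.5% of the 12541 genes tested were called, 16.5% with a positive and 16% with a negative term. The difference with LPS minus that without, on the log2 scale, was 2.41 for Ccr1, 1.41 for Ccr2, 0.70 for Ccrl2, 0.64 for Cxcr4 and −0.56 for Ccr7. The term of Ccrl2 is the least firm of them, as its call was lost without any of 4 of the 8 libraries and with DESeq2. The terms of Cxcr5 and Cx3cr1 were not called. Groups of 2 libraries are too small to look for a library that stands apart by gene.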

How the results depend on the processing

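Over the settings other than leaving out a library, 252 of the 282 log2FCs of the receptor genes kept their direction and their side of the threshold, 29 kept the direction without passing it and 1 newly passed it; none turned. Of the 28 levels per length, 16 moved by more than 1 SD with library size only, by −10.1% to 11% over all 28, and 2 with the median-ratio (RLE) size factors, and the order of the genes stayed as it was in every group. Other gene lengths were not tried. With DESeq2, 3086 genes were called without LPS and 2643 for the interaction. With the coefficient of variation set to 0.1, these counts were 2905 and 2161, and 3 of the 7 receptor genes were called without LPS. With it set to 0.4, far above the 0.0306 to 0.0573 found in these libraries, 448 genes were called without LPS, 782 with LPS, 1110 and 850 for the LPS responses of WT and 3xGrk-/- cells and 72 for the interaction; of the 7 receptor genes 0, 2, 3, 4 and 0 were called in the same order. Receptor counts here include Cx3cr1 and Cxcr5 where they were tested, also where the filter on low counts fixed their direction. A set spread makes fewer calls by construction; for DESeq2 the cause was not tested. Leaving out each library in turn turned the interaction terms of Cxcr5 (range −0.055 to 0.18) and Cx3cr1 (−2.07 to 0.10), neither of which was called.

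The replicate number as a block left 5292, 5654, 7438, 6793 and 3884 genes called in the comparisons without LPS, with LPS, of the LPS responses of WT and 3xGrk-/- cells and of the interaction; the libraries share only a number. At this depth Cx3cr1 and unstimulated Cxcr5, at 25 counts or fewer per library, can show only large differences.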
